A study of Mus musculus with 20 samples.

Results

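The epidermal growth factor (EGF) family was followed here in cystic and control mouse kidneys through 10 genes of the family picked by name, 6 for ligands (*Egf*, *Hbegf*, *Areg*, *Ereg*, *Tgfa* and *Btc*) and 4 for receptors (*Egfr*, *Erbb2*, *Erbb3* and *Erbb4*), out of 24411 genes in the count table. The ligands are made as membrane-anchored precursors that metalloproteases release, and they bind receptor tyrosine kinases of the ErbB family, which pair with each other and feed into the MAP kinase and PI3 kinase pathways. ErbB2 binds no known ligand and ErbB3 has little kinase activity of its own, so both act in pairs with other members. In the kidney, *Egf* is made mainly by the thick ascending limb and the distal convoluted tubule, and EGF receptor signaling has long been studied in cyst growth.

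Whole-kidney RNA of 20 C57BL/6 mice from 3 litters (A, B and C) was sequenced at P125 as separate libraries of 11307741 to 19324073 counts, and female controls, female mutants, male controls and male mutants made up 4 groups of 5. Mutants were *Pkd2 fl/fl; Pax8 rtTA; TetO Cre*, and controls were *Pkd2 fl/fl* but lacked either *Pax8 rtTA* or *TetO Cre*. Both received doxycycline (DOX) at 50 mg per kg by intraperitoneal injection from P27 to P29. The *Pax8* promoter drives rtTA in tubule cells of every segment. Each library mixes these with vessels, stroma and immune cells, and *Pkd2* was not measured by cell type. Levels are CPM, counts scaled to library size with the trimmed mean of M values (TMM), and a gene was called at an adjusted p under 0.01 in edgeR's quasi-likelihood test with Benjamini-Hochberg adjustment over all genes tested. Kidney weight as a percentage of body weight (KBW) was 0.615% ± 0.0448 (SD, n = 5) in female controls, 1.18% ± 0.261 (SD, n = 5) in female mutants, 0.692% ± 0.117 (SD, n = 5) in male controls and 1.68% ± 0.338 (SD, n = 5) in male mutants.

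The library of female mutant 4 stood apart from the others. It held 14850 genes with a count, against 16776 to 17724 in the other libraries, and 76 genes with a single count, against 708 to 859. It also had the lowest KBW of the mutants, 0.836%. Values without it are given beside the tests of the family and the counts of the lists over all mice, while group means and sums of CPM include it.

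The targeted gene was read first. *Pkd2* was at 193, 306, 291, 218 and 278 CPM in female controls 1 to 5 and at 150.1, 133, 94.7, 182 and 166 CPM in female mutants 1 to 5. It was at 272, 298, 250.3, 332 and 303 CPM in male controls 1 to 5 and at 109.7, 124, 109.7, 133 and 120.1 CPM in male mutants 1 to 5. Every mutant lay below every control of its sex. The log2 fold change of *Pkd2* was -1.32 (SE 0.0827, adjusted p = 2.2e-05) in males, -0.80 (SE 0.176, adjusted p = 0.0276) in females and -1.06 (SE 0.120, adjusted p = 9.7e-06) over all mice with edgeR. Without female mutant 4 the value in females was -0.91 (SE 0.178, adjusted p = 0.00909). The counts do not separate the floxed exons from the rest of the gene. The tissue was kidney by its markers: the proximal tubule list, led by *Slc34a1*, summed to 13168 ± 603 CPM (SD, n = 5) in female controls and 16499 ± 441 CPM (SD, n = 5) in male controls, and the thick ascending limb list, led by *Umod*, to 8911 ± 391 and 6473 ± 184 CPM.

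Of the 10 genes, 8 had enough counts to be tested in every comparison, and *Areg* and *Ereg* did not. Over all mice, with sex and litter in the fit, 4 of the 8 were called between mutants and controls, where 15.9% of 14191 genes were called: 3 rose (background 10%) and 1 fell (background 5.86%). *Egf* fell, and *Btc*, *Hbegf* and *Egfr* rose. *Tgfa*, *Erbb2*, *Erbb3* and *Erbb4* were not called. In males 3 of 8 were called (background 8.46%), with *Btc* and *Egfr* higher (background 5.25%) and *Egf* lower (background 3.2%). In females edgeR called 0 of 8 (background 0.637%), while 4 had an unadjusted p under 0.05 (20.6% of all genes) and DESeq2's Wald test called 2 (6.05% of all genes), *Egf* and *Btc*. Without female mutant 4, the same 2 genes were called in females by edgeR, where 5.93% of 14595 genes were called. A call in 1 sex and not in the other does not show a difference between them: the sex-by-genotype term called 0 of 8 genes (background 0%), none of the 8 had an unadjusted p under 0.05 for it, and DESeq2 called 0 of them. Leaving out that mouse, the adjusted p of the 8 was 0.851 or above for that term. In simulated data this term recovered the smallest share of known changes among the comparisons of groups. Across all genes, 618 of 14820 had an unadjusted p under 0.05 for that term, and DESeq2 called 18.

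**Figure D1:**
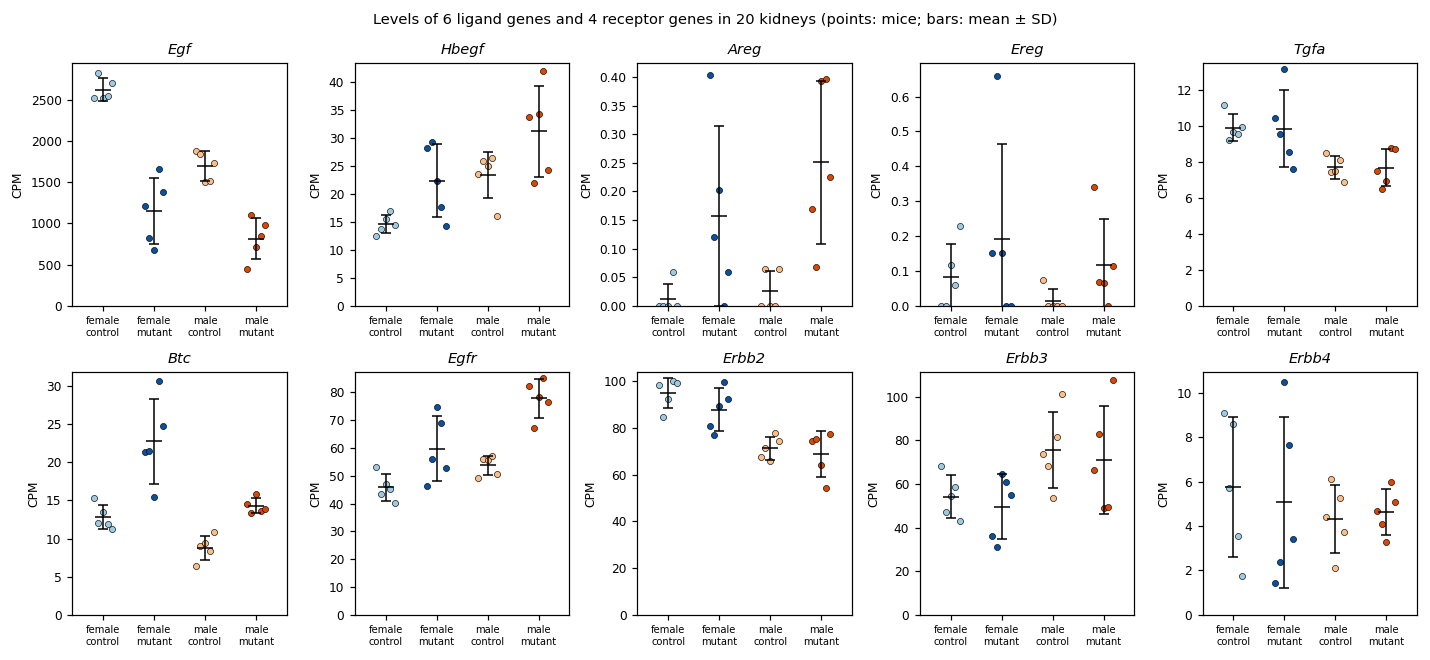
Levels of the 6 ligand genes and 4 receptor genes in CPM (y axes, linear and from 0) in each of the 4 groups of 5 mice; points are mice and bars are the mean ± SD. *Egf* in all 10 mutants lies below all controls of the same sex, *Btc* in all 10 mutants lies above them, and *Areg* and *Ereg* stay under 1 CPM in every mouse. The share of all genes that separate in this way was not counted.

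*Egf* encodes the precursor of EGF itself. It was at 2525, 2831, 2528, 2550.3 and 2710.3 CPM in female controls 1 to 5 and at 1216, 822, 681, 1657 and 1377 CPM in female mutants 1 to 5. In males it was at 1886, 1849, 1505, 1514 and 1729.6 CPM in controls 1 to 5 and at 443, 1099.6, 710.2, 850.4 and 979 CPM in mutants 1 to 5. The highest female mutant was number 4, and the lowest mouse of all was male mutant 1, which had the largest KBW. Mutants and controls did not overlap in either sex. The share of all genes without overlap was not counted, for *Egf* or for the genes below. By edgeR, 33.7% of all genes in males and 20.6% in females had an unadjusted p under 0.05. The log2 fold change of *Egf* was -1.12 (SE 0.162, adjusted p = 7.8e-05) over all mice, -1.05 (SE 0.201, adjusted p = 0.00492) in males and -1.18 (SE 0.217, adjusted p = 0.0153) in females by edgeR's quasi-likelihood test. Without female mutant 4 it was -1.42 (SE 0.171, adjusted p = 0.00129) in females and -1.23 (SE 0.154, adjusted p = 1.6e-05) over all mice. Within the 6 groups of sex and litter, the mutant mean of log2 CPM was lower in 6 of 6, with differences from -1.43 to -0.82, and 3 of these groups held 1 mutant and 1 control. In males the adjusted p of *Egf* passed 0.01, at 0.0113 to 0.0290, when any one of male controls 1 to 5 or male mutants 3 and 5 was left out.

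Markers of the segments that make *Egf* were also lower in mutants. Of 7 distal convoluted tubule markers, 7 fell over all mice and 0 rose, with a median log2 fold change of -0.96, against -0.01 for all genes tested. *Slc12a3*, the thiazide-sensitive cotransporter, changed by -1.11 (SE 0.136, adjusted p = 1.8e-05) and *Calb1*, a calcium-binding protein, by -1.14 (SE 0.174, adjusted p = 1.2e-04). *Pvalb*, which encodes parvalbumin, changed by -1.26 (SE 0.169, adjusted p = 4.3e-05) and *Klhl3*, a substrate adaptor of a ubiquitin ligase, by -0.96 (SE 0.217, adjusted p = 0.00310). Of 8 thick ascending limb markers, 4 fell and 0 rose, with a median of -0.41. *Umod*, the most abundant of them, changed by -0.42 (SE 0.0775, adjusted p = 5.8e-04) and *Slc12a1*, the furosemide-sensitive cotransporter, by -0.73 (SE 0.126, adjusted p = 3.4e-04). *Kcnj1*, a potassium channel, changed by -0.69 (SE 0.0854, adjusted p = 2.0e-05) and *Cldn10*, a claudin, by -0.39 (SE 0.0887, adjusted p = 0.00309). The summed distal convoluted tubule list was 3322 ± 292 CPM (SD, n = 5) in female controls and 1688 ± 362 CPM in female mutants, and 2341 ± 221 and 1331 ± 290.4 CPM in males. The summed thick ascending limb list was 8911 ± 391 and 5964 ± 803 CPM in females and 6473 ± 184 and 4893 ± 296 CPM in males. None of the markers of either list was at 0 in any mouse. In bulk kidney, fewer cells of a segment and less RNA per cell cannot be told apart, and the part of these markers in the *Egf* result was not tested.

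Over the 20 mice, the genes with the log2 CPM most like *Egf*, among 13781 genes with a mean of at least 1 CPM, were *Tmem52b* (0.970), *Slc12a3* (0.965), *Slc16a7* (0.965) and *Rap1gap* (0.964), with Pearson's r in parentheses. The 20 mice share the split into mutants and controls, and this likeness is a description with no test.

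*Btc* encodes betacellulin, a ligand of both the EGF receptor and ErbB4. It was at 15.3, 12.1, 13.4, 12.0 and 11.2 CPM in female controls 1 to 5 and at 21.3, 21.5, 15.5, 30.6 and 24.7 CPM in female mutants 1 to 5. In males it was at 6.37, 8.96, 9.39, 8.36 and 10.8 CPM in controls 1 to 5 and at 14.6, 13.4, 15.9, 13.7 and 13.9 CPM in mutants 1 to 5. Mutants were above controls in both sexes with no overlap, the margin being narrowest for female mutant 3, and female mutant 4 was the highest mouse. The edgeR log2 fold change of *Btc* was 0.77 (SE 0.114, adjusted p = 9.7e-05) over all mice, 0.68 (SE 0.135, adjusted p = 0.00556) in males and 0.85 (SE 0.169, adjusted p = 0.0204) in females. Leaving out female mutant 4 gave 0.70 (SE 0.138, adjusted p = 0.00942) in females and 0.68 (SE 0.0971, adjusted p = 4.3e-05) over all mice. The 6 groups of sex and litter gave differences in log2 CPM from 0.36 to 1.13, all above 0. In males the adjusted p was 0.0101 to 0.0367 without any one of male controls 1 to 4 or male mutants 1, 3 and 4.

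*Hbegf* encodes heparin-binding EGF-like growth factor. It was at 12.5, 13.7, 15.4, 16.9 and 14.4 CPM in female controls 1 to 5 and at 28.1, 29.2, 22.3, 17.7 and 14.2 CPM in female mutants 1 to 5. In males it was at 23.6, 25.8, 24.9, 26.3 and 16.1 CPM in controls 1 to 5 and at 33.6, 21.9, 34.3, 41.9 and 24.2 CPM in mutants 1 to 5. The groups overlapped in both sexes: female mutant 5 lay within the female controls, male mutants 2 and 5 within the male controls, and male control 5 was well below the other male controls. *Hbegf* rose over all mice, by 0.48 (SE 0.119, adjusted p = 0.00555) on the log2 scale, and edgeR gave 0.35 (SE 0.130, adjusted p = 0.0780) in males and 0.61 (SE 0.187, adjusted p = 0.0854) in females, neither called. Without female mutant 4 the values were 0.51 (SE 0.117, adjusted p = 0.00261) over all mice and 0.70 (SE 0.174, adjusted p = 0.0246) in females. The call over all mice was lost, at an adjusted p of 0.0102 to 0.0190, without any one of female controls 1 to 3, female mutants 1 and 2, male controls 4 and 5 or male mutants 1, 4 and 5. In males it was gained without male mutant 2, at 0.00248. In 5 of the 6 groups of sex and litter the mutants were higher, and the differences in log2 CPM ran from -0.02 to 1.16. The genes most like *Hbegf* over the 20 mice were *Gdf15* (0.924), *Shtn1* (0.868), *Sh3glb1* (0.855), *Spdl1* (0.847) and *Ugcg* (0.843).

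Markers of injured tubule also differed between mutants and controls. Of 7 listed, 6 rose over all mice and 0 fell, with a median log2 fold change of 2.54. *Havcr1*, which encodes kidney injury molecule 1, changed by 6.33 (SE 0.568, adjusted p = 1.8e-06) and *Krt20*, a keratin, by 5.13 (SE 0.628, adjusted p = 1.8e-05). *Lcn2*, which encodes lipocalin 2, changed by 4.60 (SE 0.523, adjusted p = 9.6e-06) and *Vcam1*, an adhesion molecule, by 2.54 (SE 0.287, adjusted p = 8.9e-06). The list, led by *Spp1*, summed to 2423 ± 199 CPM (SD, n = 5) in female controls, 7098 ± 3766 CPM in female mutants, 1160.2 ± 122 CPM in male controls and 4423 ± 3336 CPM in male mutants. *Krt20* was at 0 in female control 4 and male control 1, and the other markers were above 0 in every mouse. The part of the list in the levels of the ligands was not tested.

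*Areg*, which encodes amphiregulin, was at the edge of detection. Its raw counts were 0, 0, 0, 1 and 0 in female controls 1 to 5 and 8, 2, 4, 0 and 1 in female mutants 1 to 5. They were 0, 1, 0, 0 and 1 in male controls 1 to 5 and 3, 1, 6, 6 and 4 in male mutants 1 to 5. All 5 male mutants had at least 1 count, but male mutant 2 had a single count, as did male controls 2 and 5, and lay above them in CPM only through the size of the libraries. The summed counts were 20 in male mutants and 2 in male controls, a ratio per library read of 8.99 with an exact 95% interval from 2.18 to 79.3. In females the sums were 15 and 1, a ratio of 15.2 with an interval from 2.34 to 639. These intervals cover counting error only. A two-sided exact permutation test of CPM, chosen after the data were seen, gave p = 0.00794 in males, the smallest that 5 mice against 5 allow. On raw counts, where mice with the same count tie, the exact permutation test gave p = 0.0238 in males. In females the exact permutation test gave p = 0.0873, and p = 0.0159 without female mutant 4, whose library holds few low counts, with p = 0.0873 and p = 0.0159 on raw counts. These p-values are not adjusted for the exact tests run on *Areg* and *Ereg*, 6 on CPM and 6 on counts. With no filter on low counts, edgeR called *Areg* over all mice, at a log2 fold change of 2.72 (SE 0.711, adjusted p = 0.00820), where 11.7% of 19835 genes were called, and not in males (adjusted p = 0.0968) or females (adjusted p = 0.204). The same fit without female mutant 4 gave 2.86 (SE 0.670, adjusted p = 0.00265) over all mice, and an adjusted p of 0.0681 in females.

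*Ereg*, which encodes epiregulin, was as sparse. Its raw counts were 0, 0, 2, 1 and 3 in female controls 1 to 5, 3, 11, 3, 0 and 0 in female mutants 1 to 5, 1, 0, 0, 0 and 0 in male controls 1 to 5 and 6, 1, 1, 0 and 2 in male mutants 1 to 5. Most of the counts in female mutants came from number 2 and most of those in male mutants from number 1, so each ratio of sums rests largely on 1 mouse. The groups overlapped in both sexes. The ratio of summed counts per library read was 8.99 in males, from 10 and 1 counts, with a counting interval from 1.28 to 390.2, and 2.87 in females, from 17 and 6 counts, with an interval from 1.08 to 8.89. The two-sided exact permutation test over mice gave p = 0.127 in males and p = 0.548 in females, or p = 0.286 in females without number 4. On raw counts the exact permutation p was 0.127 in males, and in females it was 0.214 without number 4 and higher with it. With no filter, the edgeR log2 fold change of *Ereg* over all mice was 1.83 (SE 0.836, adjusted p = 0.140), or 2.01 (SE 0.785, adjusted p = 0.0675) without female mutant 4. With so few counts these tests do not show that *Ereg* was alike in the groups.

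*Tgfa* encodes transforming growth factor alpha, another ligand of the EGF receptor. It ranged over 9.22 to 11.1 CPM in female controls, 7.58 to 13.2 in female mutants, 6.88 to 8.49 in male controls and 6.49 to 8.78 in male mutants. Mutants and controls overlapped in both sexes. The log2 fold change over all mice was -0.01 (SE 0.100, adjusted p = 0.955) with edgeR, or 0.01 (SE 0.0986, adjusted p = 0.934) without female mutant 4, and its sign changed between settings.

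*Egfr* encodes the EGF receptor. It was at 53.1, 43.4, 47.1, 45.4 and 40.1 CPM in female controls 1 to 5 and at 46.3, 56.1, 74.8, 69.0 and 52.8 CPM in female mutants 1 to 5. In males it was at 49.3, 56.1, 55.5, 57.0 and 50.6 CPM in controls 1 to 5 and at 82.4, 67.0, 78.4, 85.0 and 76.5 CPM in mutants 1 to 5. All male mutants lay above all male controls, while female mutants 1 and 5 lay within the range of the female controls. *Egfr* rose by 0.45 (SE 0.0780, adjusted p = 3.8e-04) on the log2 scale over all mice and by 0.51 (SE 0.0760, adjusted p = 0.00169) in males, and was at 0.40 (SE 0.136, adjusted p = 0.117) in females, where edgeR did not call it. Without female mutant 4 the values were 0.43 (SE 0.0803, adjusted p = 4.9e-04) over all mice and 0.37 (SE 0.145, adjusted p = 0.125) in females. In males the call was lost without male control 4, at an adjusted p of 0.0133. Within groups of sex and litter the difference in log2 CPM ran from -0.20 to 0.60 and was above 0 in 5 of 6. The genes most like *Egfr* over the 20 mice were *App* (0.951), *Sh3d19* (0.949), *H6pd* (0.935) and *Clic4* (0.920).

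The other receptors were not called between mutants and controls. *Erbb2* ranged over 84.8 to 100.3 CPM in female controls, 77.2 to 99.8 in female mutants, 65.7 to 77.7 in male controls and 54.1 to 77.4 in male mutants. *Erbb3* ranged over 42.9 to 68.0, 31.2 to 64.5, 53.8 to 101 and 49.1 to 107 CPM in the same order. *Erbb4*, a receptor for neuregulins as well as for *Btc* and *Hbegf* products, ranged over 1.75 to 9.10, 1.41 to 10.5, 2.10 to 6.10 and 3.28 to 6.01 CPM. Their log2 fold changes over all mice were -0.07 (SE 0.0669, adjusted p = 0.478) for *Erbb2*, -0.11 (SE 0.140, adjusted p = 0.623) for *Erbb3* and -0.04 (SE 0.321, adjusted p = 0.942) for *Erbb4* by edgeR. With female mutant 4 left out they were -0.10 (SE 0.0664, adjusted p = 0.287), -0.14 (SE 0.144, adjusted p = 0.478) and -0.09 (SE 0.333, adjusted p = 0.869). The standard error of *Erbb4* was the widest of the 8 tested genes, and its level varied several-fold between mice of 1 group. Over the 20 mice *Erbb4* was most like *Ash1l* (0.964), *N4bp2* (0.945), *Kif13b* (0.945), *Chd9* (0.938) and *Rev3l* (0.932), and *Erbb3* most like *Ankrd28* (0.898), *Lrrc8b* (0.872), *2610507B11Rik* (0.868), *March7* (0.868) and *Slc11a2* (0.867). These 2 lists were chosen after the levels were seen.

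Levels were compared between genes per kilobase of exon in GENCODE M21. In female controls the mean levels of the receptors in CPM per kilobase (± SD, n = 5) were *Erbb2* 18.3 ± 1.25, *Erbb3* 9.02 ± 1.64, *Egfr* 4.04 ± 0.426 and *Erbb4* 0.465 ± 0.256, and in male controls *Erbb2* 13.7 ± 0.936, *Erbb3* 12.6 ± 2.90, *Egfr* 4.74 ± 0.307 and *Erbb4* 0.350 ± 0.124. In female mutants they were *Erbb2* 16.9 ± 1.74, *Erbb3* 8.23 ± 2.49, *Egfr* 5.28 ± 1.04 and *Erbb4* 0.411 ± 0.312. In male mutants they were *Erbb2* 13.3 ± 1.88, *Erbb3* 11.8 ± 4.11, *Egfr* 6.88 ± 0.610 and *Erbb4* 0.375 ± 0.0831, and *Erbb2* and *Erbb3* overlapped there and in male controls. Among ligands in female controls, *Egf* was at 233 ± 12.1 CPM per kilobase, *Hbegf* at 3.02 ± 0.347, *Btc* at 2.83 ± 0.355 and *Tgfa* at 1.53 ± 0.114, with *Hbegf* and *Btc* overlapping. In female mutants, male controls and male mutants, in that order, *Egf* was at 102 ± 35.5, 150.5 ± 16.0 and 72.4 ± 22.6, *Hbegf* at 4.61 ± 1.35, 4.82 ± 0.864 and 6.45 ± 1.68, *Btc* at 5.03 ± 1.22, 1.94 ± 0.359 and 3.16 ± 0.217 and *Tgfa* at 1.52 ± 0.329, 1.18 ± 0.0965 and 1.18 ± 0.159. *Hbegf* and *Btc* overlapped in female mutants, and *Hbegf* lay above *Btc* in every male. *Egf* made up 96.9% ± 0.303 of the summed ligand level in female controls and 89.1% ± 3.64 in female mutants (SD, n = 5). The share of *Egf* was 94.9% ± 0.823 in male controls and 85.6% ± 5.74 in male mutants (SD, n = 5). The share of *Egfr* in the summed receptor level was 12.7% in female controls, 17.2% in female mutants, 15.3% in male controls and 21.9% in male mutants.

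Sex differences were read within each genotype. In controls, 3 of 8 genes were called between males and females (background 17.8%): *Hbegf* was higher in males (background 8.75%), and *Egf* and *Erbb2* were lower (background 9.02%). The male to female log2 fold change in controls was -0.62 (SE 0.0961, adjusted p = 4.9e-04) for *Egf*, 0.74 (SE 0.127, adjusted p = 9.2e-04) for *Hbegf* and -0.36 (SE 0.0780, adjusted p = 0.00472) for *Erbb2* by edgeR. All 5 male controls lay below all 5 female controls for *Egf*, *Erbb2*, *Btc* and *Tgfa*, while male control 5 overlapped the females for *Hbegf*. The share of all genes with such separation was not counted. By edgeR, 7 of the 8 family genes and 40.4% of 14123 genes had an unadjusted p under 0.05. The values not called were -0.53 (SE 0.158, adjusted p = 0.0240) for *Btc*, -0.37 (SE 0.112, adjusted p = 0.0261) for *Tgfa*, 0.25 (SE 0.0834, adjusted p = 0.0377) for *Egfr*, 0.54 (SE 0.178, adjusted p = 0.0384) for *Erbb3* and -0.31 (SE 0.378, adjusted p = 0.577) for *Erbb4*. Markers also differed between male and female controls: 5 of 8 thick ascending limb markers (median log2 fold change -0.46), 3 of 7 distal convoluted tubule markers (median log2 fold change -0.49), 4 of 4 podocyte markers (median log2 fold change -0.63) and 4 of 4 endothelium markers (median log2 fold change -0.47) were called lower in males by edgeR and none of these lists had a marker called higher, while 3 of 8 proximal tubule markers (median 0.08) were called higher and 0 lower, against a median of -0.01 for all genes. Of 6 injured tubule markers tested, 3 were called lower in males and 1 higher, with a median log2 fold change of -0.62. The intercalated cell, principal cell, macrophage, and fibroblast and myofibroblast lists each had 1 marker called lower and 0 higher. The part of all these markers in the sex differences of the family was not tested. *Egf* had an adjusted p of 0.0458 in 1 fit of all 20 mice. Without male control 4, *Egf* had an adjusted p of 0.0115 and *Hbegf* of 0.0202. Without female control 1, *Hbegf* had 0.0113, *Erbb2* 0.0661 and *Erbb3* 0.00208. *Erbb2* was also lost without female control 5 (0.0145), male control 1 (0.0125) or male control 5 (0.0142), and *Btc* was gained without female control 5 (0.00640) or male control 5 (0.00635).

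In mutants edgeR called 0 of 8 genes between the sexes (background 5.42%), 4 had an unadjusted p under 0.05 (30.5% of all genes), and DESeq2 called 2 (12.2% of all genes), *Btc* and *Egfr*. The male to female log2 fold change in mutants was -0.64 (SE 0.173, adjusted p = 0.0326) for *Btc*, 0.47 (SE 0.127, adjusted p = 0.0332) for *Egfr*, -0.37 (SE 0.126, adjusted p = 0.0749) for *Erbb2*, 0.53 (SE 0.185, adjusted p = 0.0821) for *Hbegf* and -0.49 (SE 0.291, adjusted p = 0.279) for *Egf*. In a fit that left out female mutant 4 these were -0.51 (SE 0.133, adjusted p = 0.0235) for *Btc*, 0.50 (SE 0.129, adjusted p = 0.0229) for *Egfr*, -0.31 (SE 0.111, adjusted p = 0.0706) for *Erbb2*, 0.44 (SE 0.170, adjusted p = 0.0855) for *Hbegf* and -0.27 (SE 0.247, adjusted p = 0.438) for *Egf*, and none of the 8 was called. Without female mutant 3, *Btc* was called at 0.00515. Both sex comparisons share mice with the comparisons of genotype.

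**Figure D2:**
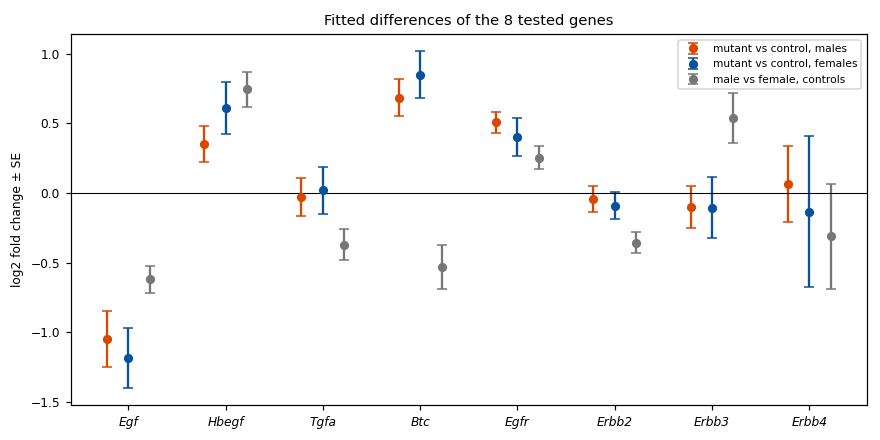
Fitted log2 fold change ± SE (y axis) of the 8 tested genes (x axis) for mutant against control in males, mutant against control in females and male against female in controls, 5 mice a group. The *Egf* points lie below 0 in all 3 comparisons, and *Btc* lies above 0 for genotype and below 0 for sex.

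The ligands and receptors were then set against KBW in the 10 mutants. With sex in the fit, edgeR called 0 of 8 slopes (background 0%), 1 had an unadjusted p under 0.05, and DESeq2's Wald test called 1, *Egf*. Across all genes 3212 of 14416 slopes had an unadjusted p under 0.05 and DESeq2 called 585. The slope of *Egf* was -1.48 (SE 0.304, adjusted p = 0.0363) on the log2 scale per percentage point of KBW, and -1.41 (SE 0.361, adjusted p = 0.134) without female mutant 4. The slope of *Hbegf* was 0.71 (SE 0.371, adjusted p = 0.279), that of *Btc* -0.40 (SE 0.271, adjusted p = 0.406) and that of *Egfr* 0.12 (SE 0.252, adjusted p = 0.817), and without female mutant 4 they were 0.67 (SE 0.439, adjusted p = 0.477), -0.13 (SE 0.261, adjusted p = 0.848) and 0.34 (SE 0.264, adjusted p = 0.548). In simulated data, slopes somewhat steeper than that of *Hbegf* were not called, so the count of 0 says little about slopes of that size. Marker lists were read in the same fit, where the median slope of all genes was -0.06. Slopes were below 0 in 6 of 7 for distal convoluted tubule (median -1.04, from -1.23 to 0.07), 5 of 8 for thick ascending limb (median -0.38, from -1.88 to 0.64), 8 of 8 for proximal tubule (median -0.81, from -1.70 to -0.57) and 5 of 5 for intercalated cells (median -1.05, from -1.36 to -0.67). They were below 0 in 0 of 7 for injured tubule (median 3.19, from 2.26 to 4.49), 0 of 5 for macrophages (median 2.18, from 0.73 to 2.58) and 0 of 6 for fibroblasts and myofibroblasts (median 1.89, from 0.94 to 2.48). In these lists, in the order given, 6, 3, 6, 5, 7, 5 and 6 genes had an unadjusted p under 0.05, and edgeR called 0. In the other lists slopes were below 0 in 3 of 4 for podocytes (median -0.79), 3 of 5 for principal cells (median -0.19), 2 of 4 for endothelium (median 0.01), 0 of 4 for T and B cells (median 2.01), 3 of 6 for urothelium (median -0.06), 0 of 1 for red cells (1.01), 1 of 1 for adrenal gland (-0.66) and 0 of 2 for fat (median 3.16), where 3, 0, 0, 3, 0, 0, 0 and 1 genes had an unadjusted p under 0.05 and edgeR called 0. The part of any list in the *Egf* slope was not tested.

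Single genes were also correlated with KBW over the same 10 mutants, 9 relations in all with *Pkd2*, with permutation p-values that are not adjusted. For *Egf*, Pearson's r was -0.872 (permutation p = 0.00120) and Spearman's rho -0.794 (permutation p = 0.00875). Without the 2 mice farthest from the median KBW, male mutant 1 and female mutant 4, r was -0.633 (permutation p = 0.0947) in the 8 mutants left. With each mutant left out in turn, r stayed between -0.916 and -0.775, and the highest permutation p was 0.0159, without male mutant 1. With values centred within each sex, r was -0.858 (exact permutation p = 0.00556). For *Hbegf*, r was 0.714 (permutation p = 0.0207) and rho 0.770 (permutation p = 0.0124), r was 0.662 (permutation p = 0.0719) without those mice, and 0.552 (exact permutation p = 0.115) centred within sex. For *Btc*, r was -0.729 (permutation p = 0.0170) and rho -0.515 (permutation p = 0.132), with r at -0.622 (permutation p = 0.104) without the same mice and -0.420 (exact permutation p = 0.197) centred within sex. Both stayed on the same side of 0 without those mice, with p above 0.05 in the 8 left, and both were smaller centred within sex.

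For *Egfr*, r was 0.572 (permutation p = 0.0857) and 0.174 (exact permutation p = 0.618) centred within sex, and rho was 0.721 (permutation p = 0.0237). For *Erbb2*, r was -0.572 (permutation p = 0.0811) and -0.154 (exact permutation p = 0.710) centred within sex, and rho was -0.685 (permutation p = 0.0344). *Tgfa*, *Erbb3* and *Erbb4* had r between -0.101 and 0.201. Centred within sex, r was 0.527 (exact permutation p = 0.122) for *Tgfa*, -0.233 (exact permutation p = 0.543) for *Erbb3* and -0.115 (exact permutation p = 0.734) for *Erbb4*, the sign being opposite for all 3. *Pkd2* itself had r = -0.742 (permutation p = 0.0143) and rho = -0.770 (permutation p = 0.0124), and r = -0.659 (exact permutation p = 0.0128) centred within sex. Leaving out female mutant 4 alone put the permutation p of *Pkd2* at 0.0729, of *Btc* at 0.0956 and of *Hbegf* at 0.0587, and leaving out female mutant 5 put that of *Hbegf* at 0.0553. For *Egfr* it was 0.0336 without female mutant 1 and also without female mutant 4, and for *Erbb2* it was 0.0391 without male mutant 1 and 0.0306 without male mutant 4. No litter held 6 mutants, so no value within a litter was computed.

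**Figure D3:**
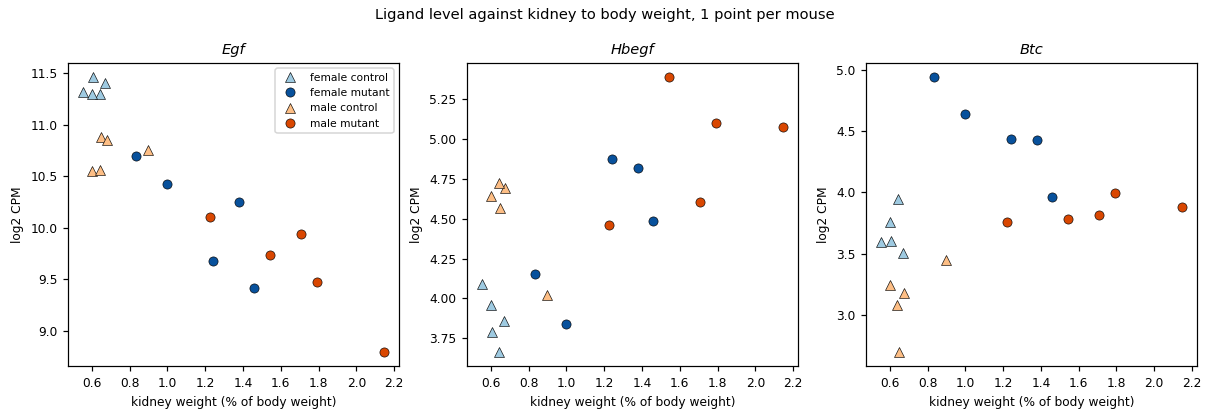
Log2 CPM (y axes) of *Egf*, *Hbegf* and *Btc* against kidney weight as a percentage of body weight (x axes), 1 point per mouse, circles for mutants and triangles for controls. Among the 10 mutants *Egf* is lower where KBW is higher, and the mouse with the largest KBW has the lowest *Egf*.

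Other genes of the pathway were counted over all mice, where 10% of genes tested rose and 5.86% fell. Of 5 further EGF family ligands, 2 had enough counts and 1 rose. This was *Nrg1*, which encodes neuregulin 1, a ligand of ErbB3 and ErbB4, at 5.09 ± 0.354 CPM (SD, n = 5) in female controls, 10.3 ± 2.03 in female mutants, 6.59 ± 1.11 in male controls and 15.9 ± 2.97 in male mutants. Its edgeR log2 fold change was 1.14 (SE 0.117, adjusted p = 4.7e-06), or 1.20 (SE 0.103, adjusted p = 7.7e-07) without female mutant 4. *Nrg4* was at -0.29 (SE 0.196, adjusted p = 0.307).

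Of 14 genes for ligand shedding and trafficking, 7 rose and 0 fell, with a median log2 fold change of 0.25. *Adam8* and *Adam19*, metalloproteases, changed by 2.64 (SE 0.387, adjusted p = 8.7e-05) and 0.97 (SE 0.226, adjusted p = 0.00363). *Rhbdl2*, a rhomboid protease, changed by 0.74 (SE 0.184, adjusted p = 0.00584), and *Rhbdf2*, a partner of the ADAM17 protease, by 0.51 (SE 0.126, adjusted p = 0.00568). Of 25 adaptors and kinases, 3 rose and 0 fell, with a median of 0.02. They were *Stat3* at 0.54 (SE 0.101, adjusted p = 6.4e-04), *Nras* at 0.40 (SE 0.0644, adjusted p = 1.9e-04) and *Grb2*, the adaptor that links receptors to Ras, at 0.20 (SE 0.0451, adjusted p = 0.00295). Of 23 receptor inhibitors and feedback genes, 1 rose and 1 fell, with a median of 0.11. *Sh3kbp1*, which acts in receptor uptake, was at 0.48 (SE 0.117, adjusted p = 0.00503) and *Socs5* at -0.23 (SE 0.0588, adjusted p = 0.00616).

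Of 13 genes listed as output of MAP kinase signaling, 12 had enough counts, 6 rose and 1 fell, with a median log2 fold change of 0.92. The transcription factor genes *Maff* and *Myc* changed by 1.67 (SE 0.240, adjusted p = 7.6e-05) and 1.57 (SE 0.226, adjusted p = 7.7e-05). *Ccnd1*, which encodes cyclin D1, changed by 0.98 (SE 0.104, adjusted p = 5.5e-06) and *Epha2*, a receptor tyrosine kinase, by 0.93 (SE 0.166, adjusted p = 4.7e-04), while *Ier3* changed by -0.53 (SE 0.134, adjusted p = 0.00638). Other pathways also induce these genes. Of 7 genes listed for magnesium and sodium handling, 0 rose and 3 fell, with a median of -0.30. *Trpm6*, the distal magnesium channel that is also among the distal convoluted tubule markers, was at -0.60 (SE 0.103, adjusted p = 3.4e-04). The sodium channel subunits *Scnn1a* and *Scnn1g* were at -0.47 (SE 0.0770, adjusted p = 2.2e-04) and -0.30 (SE 0.0509, adjusted p = 3.2e-04). The part of *Egf* in these levels was not tested.

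Markers of other cells in the kidney were read beside the family. Of 5 macrophage markers 5 rose, with a median log2 fold change of 1.49, and *Adgre1*, *Cx3cr1*, *Cd68* and *C1qa* were at 1.54 (SE 0.232, adjusted p = 1.1e-04), 1.49 (SE 0.224, adjusted p = 1.0e-04), 1.45 (SE 0.222, adjusted p = 1.2e-04) and 1.61 (SE 0.269, adjusted p = 2.6e-04). The list, led by *Csf1r*, summed to 116 ± 12.2, 226 ± 98.4, 90.8 ± 4.54 and 169.5 ± 53.3 CPM (SD, n = 5) in female controls, female mutants, male controls and male mutants. Of 6 fibroblast and myofibroblast markers 4 rose, with a median of 1.23. *Col3a1*, *Col1a1*, *Acta2* and *Dcn* were at 2.20 (SE 0.239, adjusted p = 6.4e-06), 2.05 (SE 0.260, adjusted p = 2.5e-05), 1.25 (SE 0.215, adjusted p = 3.5e-04) and 0.82 (SE 0.152, adjusted p = 6.4e-04). That list summed to 227 ± 46.3, 616 ± 319.7, 175 ± 20.1 and 521 ± 228 CPM in the same order. Their part in the levels of the family was not tested.

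The remaining lists are given by their count over all mice and by their mean summed CPM in female controls, female mutants, male controls and male mutants. Of the 8 proximal tubule markers none was called by edgeR, with a median log2 fold change of -0.19 and sums of 13168, 11068, 16499 and 15088. Intercalated cell markers fell in 4 of 5 (led by *Slc26a4*, 429, 276, 339.6 and 217), podocyte markers in 3 of 4 (*Podxl*, 535, 379, 339 and 253) and principal cell markers in 1 of 5 (*Aqp2*, 697, 699, 503 and 462). The gene in parentheses is the most abundant of its list, and the principal cell marker that fell was *Aqp3*, at -0.38 (SE 0.0878, adjusted p = 0.00368). No tested gene was called by edgeR among endothelium (*Pecam1*, 289, 260.1, 199.7 and 237), urothelium (*Psca*, 30.4, 56.3, 16.1 and 34.4), T and B cell (*Cd8a*, 6.10, 10.1, 5.04 and 6.64), adrenal gland (*Star*, 6.56, 6.16, 5.92 and 4.53) and fat markers (*Fabp4*, 127, 205, 81.4 and 102). Only 4 of 5 T and B cell genes, 1 of 4 adrenal gland genes and 2 of 4 fat genes had enough counts to be tested. The fat sum was 632 in female mutant 3, and the female mutant mean was 97.9 without it. The urothelium sum was 39.2 in male control 4, and the male control mean was 10.3 without it. Of the 4 red cell genes only *Alas2* had enough counts, and it fell by 2.16 on the log2 scale (edgeR adjusted p = 3.8e-06), while *Hbb-bt*, *Hba-a1* and *Hba-a2* were at 0 in every mouse. No other defining marker was at 0 in all mice, and the part of these cells in the levels of the family was not tested.

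Leaving out female mutant 4, the numbers of genes that rose and fell over all mice differed in 8 lists, where 21.0% of 14274 genes were called in all. They were 8 and 0 of 14 for ligand shedding and trafficking, 2 and 1 of 23 for receptor inhibitors and feedback, 7 and 1 of 12 for MAP kinase output, 0 and 6 of 8 for thick ascending limb, 0 and 1 of 8 for proximal tubule, 1 and 0 of 4 for endothelium, 6 and 0 of 6 for fibroblast and myofibroblast and 1 and 0 of 4 for T and B cell. In the other lists named above the numbers were those given. The median log2 fold change was then -1.03 for distal convoluted tubule, -0.43 for thick ascending limb, 2.68 for injured tubule and 0.93 for MAP kinase output genes.

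By annotation, *Ereg*, *Areg* and *Btc* are neighbours on chromosome 5, at chr5:91074622-91093646, chr5:91139599-91148432 and chr5:91357261-91402994 (GRCm38, GENCODE M21), and *Pkd2* lies on the same chromosome at chr5:104459450-104505819. *Egf* lies at chr3:129677565-129755316, *Tgfa* at chr6:86195223-86275719, *Egfr* at chr11:16752203-16918158, *Erbb2* at chr11:98412470-98437716, *Erbb3* at chr10:128567523-128589652 and *Erbb4* at chr1:68032186-69108059. Exons of *Egf* share a stretch of 500 bases with an antisense gene, *6330410L21Rik*, which had a mean of 35.7 counts, and one of 225 with *Gm42697*. Exons of *Erbb2* share a stretch of 9 bases with *Mien1* on the other strand, which had a mean of 1714 counts. *Ereg* shares a stretch of 141 bases with *Gm19610* and *Tgfa* one of 118 with *Gm43917*, and these and *Gm42697*, all on the other strand, are not in the count table. The strand setting of the counting is not given in the sources used here, so reads of such pairs cannot be told apart.

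Promoter sequences were matched by symbol for 7 of the 10 genes in RefSeq (GRCm38.p6). The 250 bases before the gene start are shown for 3 ligands, *Areg* and *Btc*, which had higher counts in mutants, and *Egf*, which fell. They lie at chr5:91139349-91139598 (plus strand) for *Areg*, chr5:91402995-91403244 (minus strand) for *Btc* and chr3:129755323-129755572 (minus strand) for *Egf*, which has another entry at chr3:129725087-129725336. Both strands were searched for 5 motifs, and capitals mark the matches. The TATA box, TATAAA, is in 12.4% of 32851 promoters of the same length. The GC box, GGGCGG, is in 32.7% of them, and the AP-1 site, TGANTCA, in 6.75%. The cAMP response element, TGACGTCA, is in 1.55%, and the TEAD site, GGAATG, in 12.6%. The *Areg* window held the cAMP response element 61 bases, the GC box 52 bases and the TATA box 31 bases upstream of the start, and the *Btc* and *Egf* windows held none of the 5. A match describes the letters only.
Areg: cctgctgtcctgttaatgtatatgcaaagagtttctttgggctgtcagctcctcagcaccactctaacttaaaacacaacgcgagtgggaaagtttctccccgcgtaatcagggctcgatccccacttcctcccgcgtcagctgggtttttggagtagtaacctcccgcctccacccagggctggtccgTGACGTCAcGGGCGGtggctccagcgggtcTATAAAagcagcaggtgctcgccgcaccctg
Btc: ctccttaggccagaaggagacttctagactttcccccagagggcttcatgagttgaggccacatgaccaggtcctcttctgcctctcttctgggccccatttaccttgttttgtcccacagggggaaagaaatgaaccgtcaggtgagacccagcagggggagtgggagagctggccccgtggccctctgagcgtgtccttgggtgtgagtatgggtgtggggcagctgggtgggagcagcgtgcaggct
Egf: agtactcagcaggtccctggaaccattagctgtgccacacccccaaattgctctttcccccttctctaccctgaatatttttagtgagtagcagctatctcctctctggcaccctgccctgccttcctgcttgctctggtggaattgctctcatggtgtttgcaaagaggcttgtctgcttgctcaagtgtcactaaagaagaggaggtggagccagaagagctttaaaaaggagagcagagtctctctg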

How the data were processed

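Kidney RNA libraries of 20 mice were analysed from the table of read counts per gene symbol that the authors deposited, without normalization. By the submitters' processing notes and the study's methods, trimming was done by fastp 0.23.2 and alignment to mm10 by STAR 2.7.10b; the counting tool, gene annotation and strand setting are not given in the sources used here. Groups, litters and weights came from the labels. Body weight was taken in grams and kidney weight as that of 1 kidney. Mice are numbered within a group in an order that carries no meaning.

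The fits were made with edgeR 4.0.16 under R 4.3.3 (TMM, filterByExpr, quasi-likelihood test, Benjamini-Hochberg adjustment over all genes tested, called at an adjusted p under 0.01). Fits within a sex or genotype had litter as a covariate, fits over all mice the 6 groups of sex and litter, and the fit on KBW had sex. Log2 CPM used a prior count of 2. Alternatives were DESeq2 1.42.0 size factors or Wald test, no filter on low counts, other covariates, 1 fit of all mice, a prior count of 0.5, an adjusted p under 0.05, and each mouse left out. Exact permutation tests of *Areg* and *Ereg* on CPM and on raw counts and the genes most like *Erbb3* and *Erbb4* were added after the data were seen, as were *Areg* and *Ereg* without the filter and the lists without female mutant 4. From each list, up to 4 genes that rose and 4 that fell with the largest log2 fold change over all mice were named. The 10 genes and all lists were chosen with earlier results of these data known. Tested on simulated data, the procedure recovered most known changes over all mice, in males and between control sexes, fewer in females and between mutant sexes, fewest for the sex-by-genotype term, and for KBW only those at the steeper of 2 slopes. The steeper one was added after the other gave no call. Read counts of 11307741 to 19324073 per library gave log2 fold changes a median standard error of 0.107 in males and 0.150 in females.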

Additional observations from a re-analysis of the deposited data

Results flagged for a closer look

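Among 40 groups of 5 mice examined (8 tested family genes, *Pkd2* and KBW in 4 groups each), the lowest or highest mouse was far from the others in 2, both times male control 5. Chance alone flags about 1 in 20 groups. *Hbegf* in male control 5 was at 4.02 log2 CPM, or 16.1 CPM from 250 counts, against 23.6 to 26.3 CPM in the other male controls. Its KBW was 0.896%, against 0.599% to 0.678% in the other male controls. It was the only male control of litter C, so mouse and litter cannot be told apart within that group. The other mice of litter C were female control 5, female mutant 5 and male mutant 5. Their *Hbegf* was at 14.4, 14.2 and 24.2 CPM and their KBW was 0.672%, 1% and 1.71%, in that order. Why male control 5 differed was not tested.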

How the results depend on the processing

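No paired analysis was possible because replicate numbers pair no mice, but litters, which mutants and controls share, were a term in the fits and gave the differences within sex and litter. Over all mice, *Egf*, *Btc* and *Egfr* kept direction and call under every alternative run and without each mouse, with log2 fold changes of -1.23 to -1.03 for *Egf*, 0.68 to 0.81 for *Btc*, 0.40 to 0.52 for *Egfr*. The cause of the changes below was not tested.

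Pairs of counts here are all genes called, then genes of the family. In males 1185 and 3 became 2017 and 3 with DESeq2's Wald test and 2829 and 3 at an adjusted p under 0.05. In females 92 and 0 became 944 and 2 with DESeq2, 230 and 1 with no filter on low counts, 172 and 1 with no litter term, 856 and 2 in 1 fit of all mice and 791 and 2 at the threshold of 0.05. Over all mice 2252 and 4 became 3778 and 4 at 0.05 and 2313 and 5 with no filter, *Areg* being the one added, and between control sexes 2510 and 3 became 4211 and 7 at 0.05. Between mutant sexes 782 and 0 became 1905 and 2 with DESeq2, 2353 and 3 in 1 fit and 2099 and 2 at 0.05. For the sex-by-genotype term 0 and 0 became 18 and 0 with DESeq2, 2 and 0 with no filter and 1 and 0 at 0.05. For KBW 0 and 0 became 585 and 1 with DESeq2, 10 and 0 with litter added and 363 and 1 at 0.05.

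*Pkd2* passed the threshold in females with DESeq2 (-0.80) and in 1 fit of all mice (-0.82), and between control sexes with DESeq2 (0.38). *Egf* between control sexes had an edgeR adjusted p of 0.0458 in 1 fit of all mice. Log2 values that changed sign were *Tgfa* in males in 1 fit of all mice (8.9e-04), *Tgfa* in females with no filter (-0.00642) or in 1 fit (-0.00591), *Tgfa* over all mice with no litter term (0.00313) and *Erbb4* between mutant sexes with no litter term (-0.13). With no sex term the KBW slopes of *Tgfa* (-0.0808), *Erbb3* (0.28) and *Erbb4* (-0.11) changed sign. None of the values that changed sign was called.

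Each mouse was also left out in turn. In males genes called ran from 187 to 1863, over 1.5 times away without male controls 1, 2, 3, 4 and 5 and male mutants 2, 3, 4 and 5, and family genes called ran from 0 to 4, over 1.5 times away without male controls 1, 2, 3 and 4 and male mutant 3. Among females genes called ran from 3 to 866, over 1.5 times away without female controls 1, 2, 3, 4 and 5 and female mutants 1, 2, 3, 4 and 5, and family genes called ran from 0 to 2, over 1.5 times away without female mutant 4. Between control sexes genes called ran from 1223 to 2659, over 1.5 times away without female control 1 and male control 4, and family genes called ran from 1 to 3, over 1.5 times away without male control 4. For mutants by sex genes called ran from 246 to 1330, over 1.5 times away without female mutants 1, 2, 4 and 5 and male mutants 3, 4 and 5, and family genes called ran from 0 to 1, over 1.5 times away without female mutant 3. For the sex-by-genotype term genes called ran from 0 to 3, over 1.5 times away without female control 5, female mutants 4 and 5 and male mutant 2. On KBW genes called ran from 0 to 76, over 1.5 times away without male mutants 2 and 5.

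Log2 values that changed sign, or for *Pkd2* the call, without a mouse are given as ranges, with those mice in parentheses. They were, in males, -0.12 to 0.0417 for *Tgfa* (without male control 1 and male mutants 2 and 3), -0.0784 to 0.10 for *Erbb2* (without male control 4 and male mutant 4), -0.22 to 0.16 for *Erbb3* (without male control 4), -0.0857 to 0.23 for *Erbb4* (without male controls 3 and 5 and male mutants 4 and 5). In females they were -0.15 to 0.12 for *Tgfa* (without female controls 2, 3 and 4 and female mutant 3), -0.25 to 0.0937 for *Erbb3* (without female control 1 and female mutants 1 and 2), -0.53 to 0.40 for *Erbb4* (without female controls 1 and 3 and female mutants 1 and 2), -0.91 to -0.68 for *Pkd2* (without female mutant 4). Over all mice they were -0.0917 to 0.0329 for *Tgfa* (without female control 5, female mutants 4 and 5, male control 1 and male mutants 2 and 3), -0.21 to 0.21 for *Erbb4* (without female controls 1 and 3, female mutants 1 and 2, male control 2 and male mutant 3). By sex in controls they were -0.64 to 0.30 for *Erbb4* (without female control 1). By sex in mutants they were -0.24 to 0.63 for *Erbb4* (without female mutant 1). Slopes on KBW were -0.0553 to 0.34 for *Egfr* (without female mutant 3 and male mutant 2), -1.16 to 0.64 for *Erbb4* (without female mutants 3 and 5 and male mutant 2).

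Pearson's r with KBW that changed sign or crossed an unadjusted permutation p of 0.05 without a mouse ran from 0.647 to 0.784 for *Hbegf* (without female mutants 4 and 5), -0.220 to 0.0701 for *Tgfa* (without male mutants 1 and 3), -0.862 to -0.589 for *Btc* (without female mutant 4), 0.487 to 0.709 for *Egfr* (without female mutants 1 and 4), -0.712 to -0.414 for *Erbb2* (without male mutants 1 and 4), -0.0625 to 0.257 for *Erbb4* (without female mutants 1, 2, 3 and 5 and male mutants 1, 2, 4 and 5), -0.875 to -0.622 for *Pkd2* (without female mutant 4).

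With 5 mice a group and these depths, the filter on low counts left out genes at a few counts, such as *Areg* and *Ereg*. *Areg* and *Ereg* were tested only by fits with no filter and by exact permutation tests of CPM and of raw counts. Litter and mouse coincide where a litter gave 1 mouse to a group. The labels give no segment, cell type or protein level, so ligand release and receptor activity were not measured.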
